A study of Mus musculus with 12 samples.

Results

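The histone genes and histone variants of mouse N2A neuroblastoma cells were followed through stable knockdown (KD) of Dali, a long non-coding RNA, and through differentiation with retinoic acid (RA). Members were all probe sets carrying exactly 1 gene symbol that begins with H1f, H2ac, H2bc, H3c or H4c before a digit, together with H2ax, H2az1, H2az2, H3f3a, H3f3b, Macroh2a1 and Macroh2a2. The rule found 37 probe sets for 36 genes, out of 21789 probe sets with 1 gene symbol and 35556 probe sets in all. Of these, 24 report replication-dependent genes (4 for H1, 3 for H2A, 8 for H2B, 3 for H3 and 6 for H4), 8 report replacement variants (H1f10, H2ax, H2az2, H3f3a, Macroh2a1, Macroh2a2 and, with 2 probe sets, H2az1), and 5 report histones known from germ cells (H1f6, H1f7, H1f8, H2ac1 and H2bc1). H1f0, H1f4 and H3f3b have no probe set with a single symbol here, so the rule gives no value for them.

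Total RNA was profiled on Affymetrix Mouse Gene 1.0 ST arrays in 4 groups of 3 arrays. Proliferating KD cells stably carried an shRNA expression vector against Dali and proliferating control cells stably carried a non-targeting, scrambled vector, both grown in 10% serum. KD cells after RA and control cells after RA carried the same vectors and were differentiated for 72 h with 20 µM all-trans RA, with the serum lowered to 2%, so that RA and serum changed together and cannot be told apart. All cells had been selected with hygromycin as isolated clones and the control was a stable line, so a property of a clone and an effect of the knockdown cannot be told apart. Whether the 3 arrays of each group came from different clones or cultures is not in the labels, although the study's methods call them biological replicates, so the p-values below cover the spread among the arrays alone. Arrays of the same group correlated at 0.992 or above over all probe sets, and array medians lay between 7.15 and 7.21 log2 units. Of 13 measured neuroblastoma markers 10 lay above the median level of all probe sets, against 3 of 6 fibroblast, 0 of 4 glial and 0 of 6 immune and endothelial markers.

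Histones package DNA into nucleosomes, in which H2A, H2B, H3 and H4 form the core and linker histone H1 binds where the DNA enters and leaves. Replication-dependent histone genes lie in clusters, are transcribed mainly in S phase, and yield mRNAs that end in a stem-loop rather than a poly(A) tail. Replacement variants are transcribed outside S phase too, mostly as polyadenylated mRNAs, and are placed into chromatin by their own chaperones. Near-identical cluster genes can share probes, so a value for a single cluster gene may include signal from its neighbours in sequence.

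Promoter letters are shown for the genes that differed between KD and control cells and have a promoter in the RefSeq table (GRCm38.p6), from 250 bases before to 50 bases after the start, 5′ to 3′ on the gene's strand. Capitals mark matches on either strand to the CCAAT box, to the TATA box (searched as TATAAA) and to the octamer (searched as ATTTGCAT), none of which overlap in the promoters printed.
H1f1, chr13:23763418-23763717, plus strand: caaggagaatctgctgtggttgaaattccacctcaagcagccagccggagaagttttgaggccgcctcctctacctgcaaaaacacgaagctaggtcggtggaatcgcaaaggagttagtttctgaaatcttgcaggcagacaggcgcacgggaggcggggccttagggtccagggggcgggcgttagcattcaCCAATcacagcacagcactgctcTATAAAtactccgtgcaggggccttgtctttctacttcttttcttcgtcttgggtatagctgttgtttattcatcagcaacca
H1f2, chr13:23738557-23738856, plus strand: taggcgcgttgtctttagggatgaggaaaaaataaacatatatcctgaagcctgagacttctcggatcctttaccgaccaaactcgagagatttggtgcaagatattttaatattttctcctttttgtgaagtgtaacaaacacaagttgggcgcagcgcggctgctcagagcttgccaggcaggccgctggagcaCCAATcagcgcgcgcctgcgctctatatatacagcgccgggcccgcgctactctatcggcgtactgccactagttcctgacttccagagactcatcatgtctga
H1f3, chr13:23554782-23555081, plus strand: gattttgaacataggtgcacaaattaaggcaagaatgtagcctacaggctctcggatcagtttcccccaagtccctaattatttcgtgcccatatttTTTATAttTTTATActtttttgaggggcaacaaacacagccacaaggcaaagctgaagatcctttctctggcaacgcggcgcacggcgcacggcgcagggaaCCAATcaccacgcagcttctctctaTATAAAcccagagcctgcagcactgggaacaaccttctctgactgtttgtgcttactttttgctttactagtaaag
H2ac4, chr13:23750838-23751137, plus strand: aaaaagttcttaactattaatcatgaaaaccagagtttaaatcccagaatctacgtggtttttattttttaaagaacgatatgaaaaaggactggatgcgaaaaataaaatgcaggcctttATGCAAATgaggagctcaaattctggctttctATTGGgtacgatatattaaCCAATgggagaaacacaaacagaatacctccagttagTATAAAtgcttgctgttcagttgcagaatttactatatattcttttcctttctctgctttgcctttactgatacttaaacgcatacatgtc
H2bc8, chr13:23571150-23571449, plus strand: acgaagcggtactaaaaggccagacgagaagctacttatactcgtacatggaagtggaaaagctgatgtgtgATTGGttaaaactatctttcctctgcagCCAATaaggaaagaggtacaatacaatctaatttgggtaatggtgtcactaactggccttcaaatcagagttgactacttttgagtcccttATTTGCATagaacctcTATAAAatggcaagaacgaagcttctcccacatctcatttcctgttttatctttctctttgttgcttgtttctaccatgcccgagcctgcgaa
Macroh2a2, chr10:61783815-61784114, minus strand: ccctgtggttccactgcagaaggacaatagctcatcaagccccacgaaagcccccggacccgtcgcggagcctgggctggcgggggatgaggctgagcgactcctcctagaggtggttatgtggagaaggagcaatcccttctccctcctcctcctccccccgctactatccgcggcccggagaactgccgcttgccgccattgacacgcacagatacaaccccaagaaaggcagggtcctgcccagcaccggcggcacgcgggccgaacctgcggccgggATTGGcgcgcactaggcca
Of the 36 genes, 31 matched a promoter entry, and H2bc4, H2ax, H2bc21, H3c7 and H4c14 did not. The octamer lay in 6 of 20 replication-dependent promoters (4 of 6 for H2B, 2 of 3 for H2A, and 0 of 4 for H1, 0 of 2 for H3 and 0 of 5 for H4) and in 0 of 6 variant promoters, against 1.75% of all 27025 promoters of that length. TATAAA was found in 13 of 20 replication-dependent and 0 of 6 variant promoters, against 14.16% of all, and CCAAT in 17 of 20 and 4 of 6, against 37.92%. The windows of H2ac8 and H2bc8 overlap on opposite strands, so their matches are the same sites and were counted for both genes. The promoters printed thus differ by family: H2bc8 and H2ac4 carry the octamer, and the 3 H1 genes carry CCAAT without it. Macroh2a2 carries a CCAAT match alone, on the opposite strand and after the start, not before it. These matches describe the letters in the window and draw on no expression value.

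The first comparison asked how the histone genes differed between KD and control cells during proliferation. Replication-dependent genes stood higher in KD cells as a class, 6 of them and the variant Macroh2a2 rose, and no member fell. A call required an adjusted p under 0.05 in limma, with Benjamini-Hochberg adjustment over all 35556 probe sets, and a change of at least 1.3-fold. Among all probe sets 2.07% were called higher and 1.45% lower, and among those with 1 symbol 1.93% and 1.4%. The 6 of 24 replication-dependent probe sets called higher are H2bc4, H1f1, H2bc8, H1f3, H1f2 and H2ac4. In such bulk samples, fewer cells of a type (here, in a phase of the cycle) and less RNA per cell cannot be told apart.

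H2bc4, a core histone H2B gene (probe set 10404053), had the largest replication-dependent difference. It measured 8.49, 8.61 and 8.67 log2 units in proliferating KD cells, against 7.14, 7.03 and 7.15 in proliferating control cells. The groups were far from overlapping, and the difference was 1.49 ± 0.08 on the log2 scale (SE from the fit over 12 arrays), or 2.8-fold (adjusted p = 1.84e-06). H2bc8, another H2B gene (probe set 10404036), measured 7.76, 7.54 and 7.36 in KD cells and 6.81, 6.88 and 6.83 in control cells. All KD arrays lay above all control arrays, with a wider spread among the KD arrays, and H2bc8 rose by 0.71 ± 0.09 (adjusted p = 0.000602).

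Of the 4 linker histone genes measured, 3 rose to a similar degree. H1f1 (probe set 10404069) measured 10.60, 10.70 and 10.57 in proliferating KD cells, against 9.80, 9.91 and 9.89 in proliferating control cells. H1f2 (probe set 10404059) measured 10.25, 10.04 and 10.20 in KD cells, against 9.38, 9.56 and 9.53 in control cells. H1f3 (probe set 10404033) measured 7.06, 7.38 and 7.22 in KD cells, against 6.47, 6.58 and 6.54 in control cells. In none of the 3 genes did the groups overlap. The differences were 0.76 ± 0.08 for H1f1 (adjusted p = 0.000216), 0.68 ± 0.07 for H1f2 (adjusted p = 0.000116) and 0.70 ± 0.08 for H1f3 (adjusted p = 0.000269). H1f5, the fourth, had a difference of 0.21 ± 0.06 (adjusted p = 0.0448), short of 1.3-fold.

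H2ac4, a core histone H2A gene (probe set 10404063), measured 7.10, 7.29 and 7.26 in KD cells, against 6.80, 6.87 and 6.82 in control cells. The arrays did not overlap, and H2ac4 rose by 0.38 ± 0.10 (adjusted p = 0.0281), close to the 1.3-fold limit. This call was lost without control array 1, 2 or 3 or without KD array 2 or 3, when adjusted p-values lay between 0.0602 and 0.101. The other 5 calls among replication-dependent genes held without any single array. H1f3, H2bc8 and Macroh2a2 have mean levels of 6.69, 7.17 and 6.96 log2 units, below the median of all probe sets, which 25 of the 37 members exceed.

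**Figure D1:**
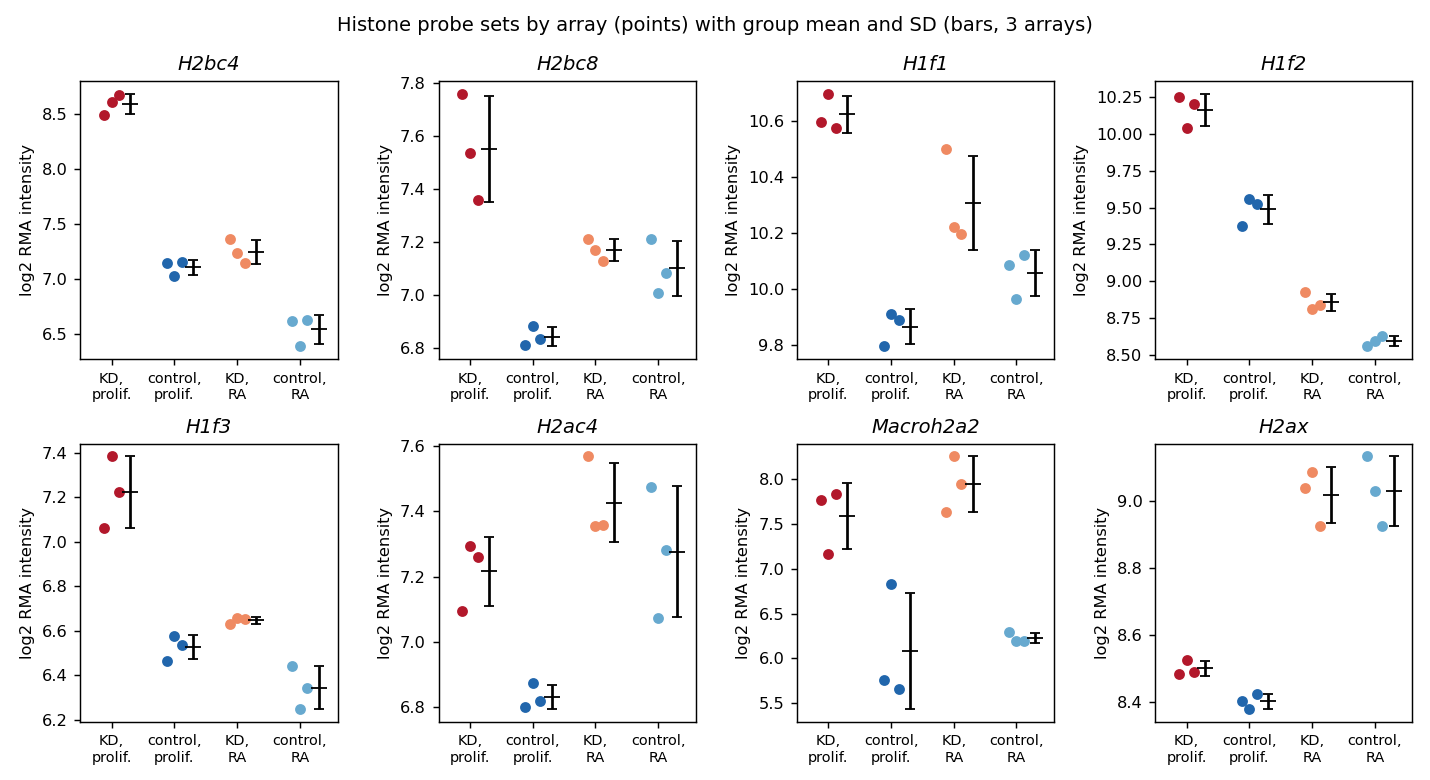
log2 RMA intensity (y axis, separate scale for each panel) of 8 histone probe sets in proliferating KD, proliferating control, KD after RA and control after RA cells (x axis). Points are single arrays and bars the mean and SD of 3 arrays. H2bc4 lies between 8.49 and 8.67 in proliferating KD cells and between 7.03 and 7.15 in proliferating control cells, whereas H2ax separates RA-treated from proliferating arrays.

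The remaining replication-dependent genes moved little but mostly in the same direction. In all, 23 of 24 had a difference above 0, with a median of 0.23, while 47.0% of all probe sets lay above 0, with a median of -0.01. At an unadjusted p under 0.05, 18 of the 24 were higher and 0 lower, against 24.87% of all probe sets in either direction. Without H1f1, H1f2, H1f3, H2bc4 and H2bc8, a group picked after its values were seen, the median of the other 19 was 0.21. By family the median difference was 0.69 for H1, 0.15 for H2A, 0.16 for H2B, 0.27 for H3 and 0.24 for H4. The H3 probe sets H3c4, H3c15 and H3c7 all have mean levels below the median of all probe sets (6.94, 6.85 and 5.08 log2 units). The arrays of KD and control cells overlapped for H3c15 and H3c7. The 6 H4 probe sets lay within a narrow band of 0.19 to 0.31, although none reached 1.3-fold. H2ac8 was the member below 0, at -0.008 ± 0.11. Its mean level of 3.99 log2 units was the lowest of all members and below the median of all probe sets, so its difference says little. The 4 genes of the smaller cluster, with a median of 0.24, stood close to the 20 of the largest cluster, with 0.22.

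Genes on either side of the clusters had smaller median differences, which were not tested against the members. Neighbours were the nearest protein-coding genes, 25 on each side, leaving out histone genes and genes at or below the median level of all probe sets. The 50 around the largest histone cluster had a median difference of 0.03 in proliferating KD against control cells, and those around the smaller cluster 0.04.

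Among the replacement variants in proliferating cells, the call was Macroh2a2, which encodes a macroH2A, an H2A variant with a large extra macro domain. Macroh2a2 (probe set 10369481) measured 7.77, 7.17 and 7.84 in proliferating KD cells, against 5.76, 6.83 and 5.65 in proliferating control cells. Control array 2 stood well above the other control arrays, and the groups still did not overlap. The rise was 1.51 ± 0.29, or 2.85-fold (adjusted p = 0.00696), and lay between 1.297 and 1.885 when single arrays were left out, the highest without control array 2.

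Macroh2a1, which encodes the other macroH2A, measured 10.33, 10.34 and 10.28 in KD cells, against 10.08, 10.10 and 10.08 in control cells. Its arrays separated fully, but the difference of 0.23 ± 0.04 (adjusted p = 0.00473) was 1.18-fold and was not called, although it equalled the median of the replication-dependent genes in size. The 2 probe sets for H2az1, an H2A variant found at promoters, agreed closely, with differences of -0.14 ± 0.04 each (adjusted p = 0.0477 and 0.0425), likewise short of 1.3-fold. H2az2, its close relative, differed by 0.13 ± 0.08, H2ax, the variant phosphorylated at DNA breaks, by 0.10 ± 0.06, H1f10, a linker variant, by -0.13 ± 0.06 and H3f3a, which encodes H3.3, by -0.09 ± 0.04. None of these 4 passed the test, and a p that misses the threshold does not show that a gene did not differ. The H3f3a probe set has a mean level of 6.04 log2 units, below the median of all probe sets, so its values here and below say little about H3.3.

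The 8 variant probe sets had a median difference of 0.005, or -0.09 without Macroh2a2, with 4 above and 4 below 0. At an unadjusted p under 0.05, 2 of the 8 were higher and 2 lower. The 5 germ cell histones, whose normal sites are testis and oocytes, ranged from -0.06 to 0.18, with 0 called by limma. An unadjusted p under 0.05 was found for 2 of them, against 24.87% of all probe sets. H2ac1, the highest, had an adjusted p of 0.0447 and stopped short of 1.3-fold. The difference between the classes was not tested. The neuroblastoma markers had a median difference of 0.08 between proliferating KD and control cells, with 8 of 13 above 0. Of the 13, 5 were called higher, against 2.07% of all probe sets. With RA in KD cells all 13 lay below 0 and 4 were called lower, against 1.81% of all. With RA in control cells 7 of 13 lay below 0, with 3 called lower and 1 higher, against 1.92% and 2.02% of all. After RA 9 of 13 lay below 0 in KD against control cells, with 2 called lower and 1 higher, against 1.77% and 3.58%. In the interaction 11 of 13 lay below 0, with a median of -0.27 and 1 called lower, against 0.121% of all. The part of these markers in the histone differences was not tested.

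**Figure D2:**
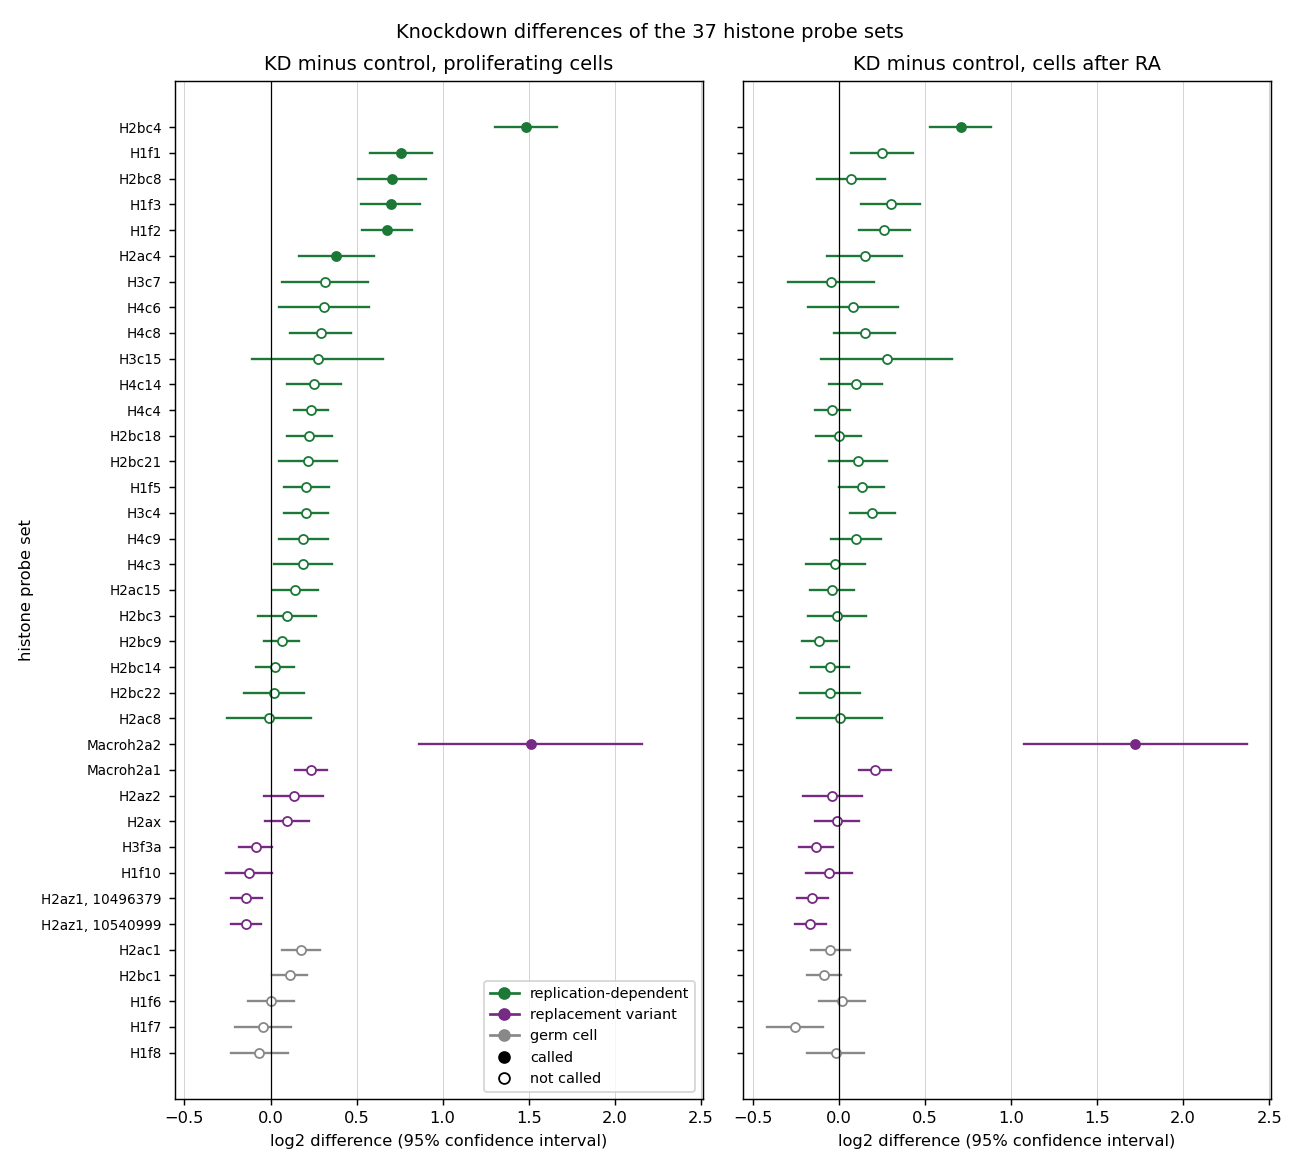
log2 difference, KD minus control, with its 95% confidence interval (x axis) for all 37 histone probe sets (y axis) in proliferating cells (left) and after RA (right). Filled points were called. In proliferating cells 23 of 24 replication-dependent probe sets lie right of 0, against 4 of 8 variant probe sets, and after RA H2bc4 and Macroh2a2 alone are filled.

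The second comparison asked the same of differentiated cells. After RA, 2 of the 37 members were called, both higher in KD cells: H2bc4 and Macroh2a2. All probe sets were called higher in 3.58% and lower in 1.77% of cases, and probe sets with 1 symbol in 1.75% and 1.98%, so the members' share was close to the background. H2bc4 measured 7.36, 7.24 and 7.15 in KD cells after RA, against 6.61, 6.39 and 6.62 in control cells after RA. The groups again stayed apart, and the difference was 0.71 ± 0.08 (adjusted p = 0.000293).

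Macroh2a2 measured 7.64, 8.26 and 7.95 in KD cells after RA, against 6.29, 6.19 and 6.19 in control cells after RA. No control array stood apart here, and the rise was 1.72 ± 0.29, or 3.3-fold (adjusted p = 0.0029). In proliferating cells Macroh2a2 and H2bc4 had differences of like size, and after RA that of Macroh2a2 was the larger in value. The 50 genes around Macroh2a2, chosen as for the clusters, had median differences of 0.11 in proliferating cells and 0.06 after RA.

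H1f2 and H1f3 kept smaller differences of 0.27 ± 0.07 (adjusted p = 0.0202) and 0.30 ± 0.08 (adjusted p = 0.0225), below 1.3-fold, and H1f1 differed by 0.25 ± 0.08 (adjusted p = 0.0617). H2bc8 differed by 0.07 ± 0.09, with its arrays overlapping. The replication-dependent median was 0.09, with 16 of 24 above 0, against -0.009 over all probe sets, and it was 0.004 for the 19 genes other than H1f1, H1f2, H1f3, H2bc4 and H2bc8. Without KD array 1 after RA the median of all 24 was 0.03.

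Among the variants after RA, Macroh2a1 differed by 0.21 ± 0.04 (adjusted p = 0.00727) and the H2az1 probe sets by -0.16 ± 0.04 and -0.17 ± 0.04 (adjusted p = 0.0248 and 0.0173). These were close to their proliferating values and also below 1.3-fold. H3f3a differed by -0.13 ± 0.04, H1f10 by -0.06 ± 0.06, H2az2 by -0.04 ± 0.08 and H2ax by -0.01 ± 0.06, none of them passing the test. The variant median was -0.05.

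The third comparison set control cells after RA against proliferating control cells. Here the histone genes did not move as a block: 5 rose (H2ax, H2bc9, H1f5, H2az2 and H2ac4) and 2 fell (H1f2 and H2bc4). Of all probe sets 2.02% were called higher and 1.92% lower, and of those with 1 symbol 2.63% and 1.83%. Replication-dependent genes had 3 rises and 2 falls among 24, and variants 2 rises among 8.

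H1f2 had the largest fall, to 8.56, 8.60 and 8.63 in control cells after RA, against 9.38, 9.56 and 9.53 in proliferating control cells. The change was -0.90 ± 0.07 (adjusted p = 1.27e-05), with no overlap. H2bc4 fell by 0.57 ± 0.08 (adjusted p = 0.0011), its arrays also apart. H1f5, a linker histone like H1f2, went the other way. It measured 11.14, 10.93 and 10.95 in control cells after RA, against 10.50, 10.57 and 10.53 in proliferating control cells, a rise of 0.48 ± 0.06 (adjusted p = 0.000463).

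H2bc9 measured 10.47, 10.39 and 10.41 in control cells after RA, against 9.92, 9.89 and 10.01 in proliferating control cells. This H2B gene rose by 0.49 ± 0.05 (adjusted p = 7.14e-05), opposite in direction to H2bc4 in the same family. H2ac4 rose by 0.44 ± 0.10 (adjusted p = 0.0141), a call lost without array 1 of either group. H2bc14, at 0.38 ± 0.05, and H2bc3, at 0.37 ± 0.08, stopped just short of 1.3-fold. Over the class 20 of 24 lay above 0, with a median of 0.17 against -0.003 over all probe sets, and the 6 H4 probe sets lay between 0.04 and 0.26.

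Among the variants, H2ax measured 9.13, 9.03 and 8.93 in control cells after RA, against 8.41, 8.38 and 8.43 in proliferating control cells. Its rise of 0.63 ± 0.06 (adjusted p = 5.76e-05) was the largest of all 37 probe sets in this comparison. H2az2 measured 9.63, 9.77 and 9.80 after RA, against 9.39, 9.13 and 9.33 in proliferating control cells, and rose by 0.45 ± 0.08 (adjusted p = 0.00314). Without proliferating control array 2 that difference was 0.37, under 1.3-fold. The H2az1 probe sets differed by 0.12 ± 0.04 and 0.11 ± 0.04, Macroh2a1 by 0.15 ± 0.04, Macroh2a2 by 0.15 ± 0.29, H3f3a by 0.07 ± 0.04 and H1f10 by -0.14 ± 0.06, none called.

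The fourth comparison set KD cells after RA against proliferating KD cells. H2bc4, H1f2, H1f3 and H2bc8 fell, and H2ax and H1f5 rose. Of all probe sets 2.93% were called higher and 1.81% lower, and of those with 1 symbol 2.54% and 2.29%. H2bc4 fell by 1.34 ± 0.08 (adjusted p = 3.88e-06) and H1f2 by 1.31 ± 0.07 (adjusted p = 1.76e-06), each about 2.5-fold. H1f3 measured 6.63, 6.66 and 6.65 in KD cells after RA, against 7.06, 7.38 and 7.22 in proliferating KD cells, and fell by 0.58 ± 0.08 (adjusted p = 0.00068). Over the class 10 of 24 lay above 0, with a median of -0.03 against -0.002 over all probe sets, and the 6 H4 probe sets lay between -0.06 and 0.03.

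H2bc8 measured 7.21, 7.17 and 7.13 in KD cells after RA, against 7.76, 7.54 and 7.36 in proliferating KD cells. It fell by 0.38 ± 0.09 (adjusted p = 0.0157), just at 1.3-fold, and the change was -0.28 without proliferating KD array 1 and -0.36 without KD array 3 after RA, with the call lost in both. H2ax measured 9.04, 9.09 and 8.93 in KD cells after RA, against 8.48, 8.53 and 8.49 in proliferating KD cells. H2ax rose by 0.52 ± 0.06 (adjusted p = 0.000211) and H1f5 by 0.40 ± 0.06 (adjusted p = 0.00131), the second below 1.3-fold without KD array 1 of either state. H2az2 differed by 0.28 ± 0.08, Macroh2a2 by 0.36 ± 0.29, Macroh2a1 by 0.12 ± 0.04, the H2az1 probe sets by 0.10 ± 0.04 and 0.09 ± 0.04, H3f3a by 0.03 ± 0.04 and H1f10 by -0.07 ± 0.06, none called.

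The interaction tested whether the RA response itself differed, by subtracting the response in control cells from that in KD cells. H2bc4 was the 1 member called, with an interaction of -0.78 ± 0.11 (adjusted p = 0.0342). Interactions were called higher for 0.16% and lower for 0.121% of all probe sets, and for 0.078% and 0.165% of those with 1 symbol. The call was lost when 10 of the 12 arrays were left out in turn, with values between -0.86 and -0.73 and adjusted p-values up to 0.0979. H2bc8 had an interaction of -0.64 ± 0.13, H1f1 of -0.51 ± 0.12, H1f2 of -0.41 ± 0.09 and H1f3 of -0.40 ± 0.11, with adjusted p-values of 0.0698, 0.0914, 0.0925 and 0.146.

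The RA difference of H1f1 was -0.32 ± 0.08 in KD cells (adjusted p = 0.0237, below 1.3-fold) and 0.19 ± 0.08 in control cells (adjusted p = 0.18, not passing). That of H2bc8 was -0.38 ± 0.09 in KD cells (adjusted p = 0.0157) and 0.26 ± 0.09 in control cells (adjusted p = 0.0975, not passing). In all, 22 of 24 replication-dependent probe sets had an interaction below 0, with a median of -0.18, while 48.8% of all probe sets lay above 0, with a median of -0.005. The proliferating KD arrays enter both this contrast and the first comparison, so the values are not independent of it. For the variants the median was -0.03 and no probe set was called by limma. Of these 8, 0 had an unadjusted p under 0.05, against 14.48% of all probe sets. Of the 24 replication-dependent probe sets, 10 were lower and 0 higher at that threshold. Macroh2a2 had an interaction of 0.21 ± 0.41, with a 95% confidence interval from -0.71 to 1.13.

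**Figure D3:**
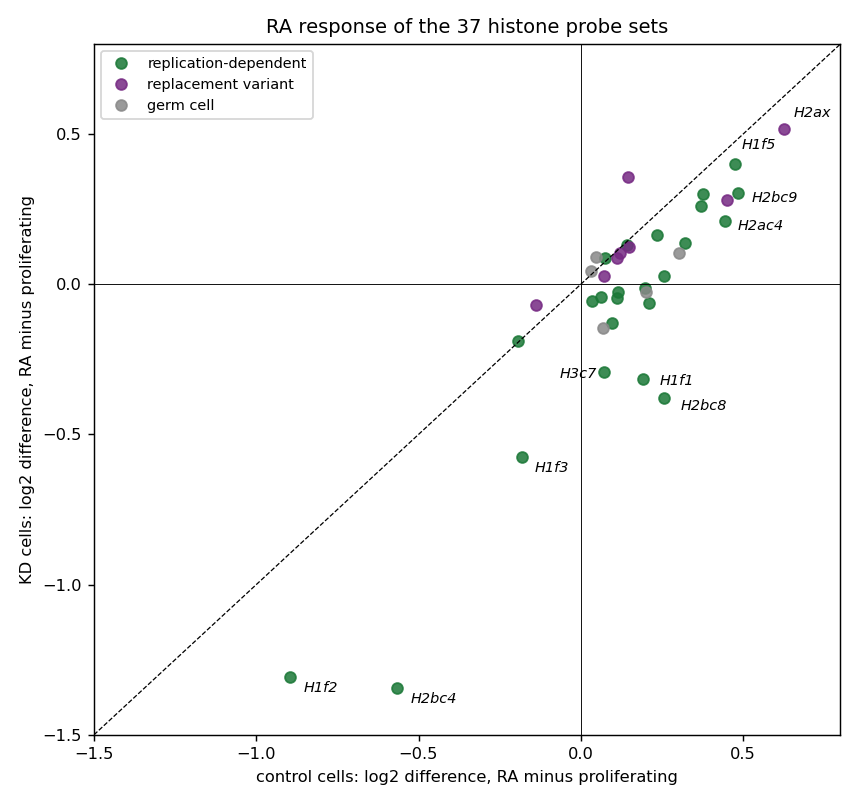
log2 difference between RA-treated and proliferating cells in KD cells (y axis) and in control cells (x axis) for the 37 histone probe sets, with the dashed line at equal response. H2bc4 lies at -1.34 in KD and -0.57 in control cells, and H1f1 and H2bc8 lie below 0 in KD cells but above 0 in control cells, while H2ax lies near the line at 0.52 and 0.63.

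The class medians were also read array by array over the 4 groups, without a test between classes. The median level of the replication-dependent genes, relative to their mean in proliferating control cells, was 0.18 to 0.26 on the arrays of proliferating KD cells, against -0.03 to 0.03 in proliferating control cells. After RA the ranges overlapped, at 0.18 to 0.30 in KD cells and 0.12 to 0.23 in control cells. Over the variants the same measure was 0.002 to 0.013 in proliferating KD cells and -0.003 to 0.005 in proliferating control cells, and 0.13 to 0.19 in KD cells and 0.10 to 0.17 in control cells after RA. With 3 arrays a group, these ranges are a description.

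DNA replication genes, whose products act in the S phase in which cluster histones are made, were called mostly with RA. Of 29 measured, 26 rose with RA in KD cells and 28 in control cells, with medians of 0.61 in KD cells and 0.75 in control cells. Rrm2, a ribonucleotide reductase subunit, rose by 1.63 ± 0.07 in KD cells and 1.45 ± 0.07 in control cells. The replicative helicase factor Mcm10 rose by 1.05 ± 0.05 in KD and 1.22 ± 0.05 in control cells, and Cdc45 by 1.00 ± 0.05 in KD and 0.97 ± 0.05 in control cells. Cdc6, an origin licensing factor, rose by 0.87 ± 0.09 in KD cells and the helicase subunit Mcm5 by 1.13 ± 0.06 in control cells. The replication-dependent histone genes had RA medians of -0.03 in KD cells and 0.17 in control cells. Between KD and control cells 1 of the 29 was called, the replication fork factor Tipin, at 0.44 ± 0.09 in proliferating cells and 0.46 ± 0.09 after RA. In proliferating cells 22 of 29 lay above 0, with a median of 0.07. At an unadjusted p under 0.05, 10 were higher and 3 lower, against 24.87% of all probe sets in either direction. Some of the higher ones passed the adjusted threshold without 1.3-fold, such as Cdt1 (0.35 ± 0.04, adjusted p = 0.000602). The median of the list on single arrays ran from 0.05 to 0.12 in proliferating KD cells and from -0.01 to 0.02 in proliferating control cells. In the interaction limma called 0 of the 29. At an unadjusted p under 0.05, 10 were lower and 0 higher, against 14.48% of all probe sets in either direction. The part of this list in the histone differences was not tested.

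**Figure D4:**
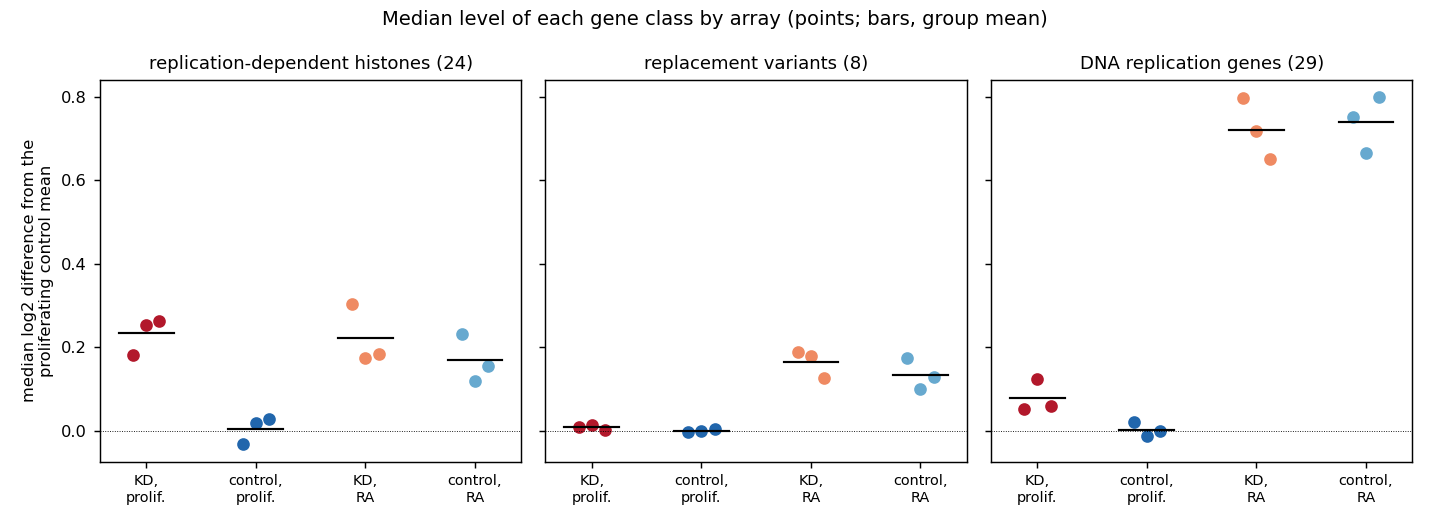
Median log2 difference from the proliferating control mean (y axis) on each array (points; bars are group means of 3 arrays) for 24 replication-dependent histone probe sets, 8 replacement variant probe sets and 29 DNA replication genes in the 4 groups (x axis). Replication-dependent histones lie at 0.18 to 0.26 in proliferating KD cells and DNA replication genes at 0.05 to 0.12, whereas after RA the DNA replication genes reach 0.65 to 0.80 in both lines.

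Among genes that serve histones, chaperones that place histones behind the fork had 8 of 14 rises with RA in each line, among them Asf1b (0.92 ± 0.06 in KD and 1.00 ± 0.06 in control cells), the CAF-1 subunits Chaf1b (0.80 ± 0.05 and 0.73 ± 0.05) and Chaf1a (0.67 ± 0.07 and 0.66 ± 0.07), Mms22l (0.79 ± 0.06 and 0.65 ± 0.06) and the acetyltransferase Hat1 (0.70 ± 0.05 and 0.52 ± 0.05). In the list for histone mRNA transcription and processing, 3 of 18 rose in KD cells and 4 of 18 in control cells. Those were Ccne2, Cdk2 and Ccne1 in both lines, at 0.81 ± 0.09, 0.53 ± 0.05 and 0.59 ± 0.05 in KD cells and 0.92 ± 0.09, 0.54 ± 0.05 and 0.48 ± 0.05 in control cells, with Casp8ap2 at 0.41 ± 0.06 in control cells. Cdk2 and the E cyclins drive entry into S phase and are not specific to histone genes.

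Variant deposition genes had 1 rise of 16 in KD cells, the centromeric H3 gene Cenpa (0.53 ± 0.05), and 2 in control cells, Cenpa (0.48 ± 0.05) and Dek (0.47 ± 0.05). In these 3 lists limma called 0 genes between KD and control cells in either state. In proliferating cells 7 of 18, 7 of 14 and 10 of 16 had an unadjusted p under 0.05, against 24.87% of all probe sets. Of these, in the same order, 6, 5 and 8 were higher in KD cells and 1, 2 and 2 lower. After RA the counts in either direction were 6, 4 and 8, against 30.22%. Some genes of each list had an adjusted p under 0.05 in proliferating cells and missed the call on size alone. Most were higher in KD cells, among them all those of the histone mRNA list, Srcap (0.21 ± 0.04, adjusted p = 0.0101) and Mcm2 (0.17 ± 0.04, adjusted p = 0.0149). The lower ones were Znhit1 (-0.28 ± 0.06, adjusted p = 0.00797) and Rbbp7 (-0.23 ± 0.04, adjusted p = 0.00654). Npat, the coactivator of cluster histone genes, differed by 0.33 ± 0.05 in proliferating cells (adjusted p = 0.00113) without reaching 1.3-fold. Slbp, which binds the histone stem-loop, differed by 0.03 ± 0.09.

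A further 32 probe sets carry several symbols, at least 1 of them a histone of the rule, and were left out of the counts above. The 10 shared by H3 genes had a median difference of 0.23 between proliferating KD and control cells, the 7 shared by H2B genes 0.18 and the 6 shared by H4 genes 0.26, with 1 H4 probe set called (shared by H4c11 and H4c17 and named after its value was seen). Their interactions were below 0 in every case, with medians of -0.24, -0.25 and -0.20. Shared H2B probe sets rose with RA in control cells in 5 of 7 cases, with a median of 0.44. Many of these probe sets list the same genes and so are not separate measurements. Those that H3f3a and H3f3b share with genes outside the rule had median differences of -0.06 for H3f3a and 0.145 for H3f3b in proliferating cells. The 5 germ cell histones had no call in any comparison: their differences after RA ranged from -0.26 to 0.02 for KD against control cells, and with RA they ranged from -0.15 to 0.11 in KD cells and from 0.03 to 0.30 in control cells, with 1, 1 and 2 of them at an unadjusted p under 0.05.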

How the data were processed

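The authors deposited log2 expression values per probe set from 12 arrays, which were RMA background corrected, quantile normalised and summarised at the gene level with oligo in R, and were analysed with limma (the sources used here do not give package versions). RNA was labelled with a whole-transcript kit, whose priming does not depend on a poly(A) tail. The number of arrays limits the precision.

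Members and gene lists were chosen with earlier results of these data known. Symbols came from the platform annotation, and 21698 of 21789 single-symbol probe sets were matched by gene ID to RefSeq names. All 35556 probe sets were fitted in limma 3.58.1 (R 4.3.3; lmFit, contrasts.fit, eBayes) with 4 group means and no covariate, p-values were adjusted by the Benjamini-Hochberg method over the whole table, and a call needed an adjusted p under 0.05 and 1.3-fold, as in the study's methods. The methods' variance filter, which passed 29 of 37 members, was used as an alternative so that every member was tested. Summaries used Python 3.11.15. The limma fitting was tested on simulated data, for KD against control in proliferating cells and for RA in control cells.

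Named genes were every member called in a KD comparison or the interaction, the 6 largest called rises and falls with RA, every replacement variant, and up to 4 called genes of each list per comparison. Outside this rule, some genes not called in the comparison given were named as examples. They include H2bc14, H2bc3, H2ac8, H2ac1, Npat, Slbp, Srcap, Znhit1, Mcm2, Rbbp7 and Cdt1. Alternatives were other filters, scalings, variance models, array weights, a replicate block, no fold cutoff and each array left out. Same-numbered arrays deviated together at correlations from -0.057 to 0.152, so array numbers were not taken to pair samples.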

Additional observations from a re-analysis of the deposited data

Results flagged for a closer look

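The RA response of H2bc4, an H2B gene, differed between KD and control cells by a test of the difference itself, narrowly. The interaction was -0.78 on the log2 scale, with H2bc4 changing by -1.34 in KD cells and by -0.57 in control cells. The adjusted p was 0.0342, and the call was lost when 10 of the 12 arrays were left out in turn, with adjusted p-values up to 0.0979, and with a replicate block, at 0.0561.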

How the results depend on the processing

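Of 23 calls of single members, 17 were kept under every alternative run that held the member, none reversed, and 25 of 477 alternative results lost a call. A member removed by a filter gave no result there, which did not count as a loss. The run with no fold cutoff was the main fit under a looser rule, so it could not lose a call. With the filter on low values, 4 members were called between proliferating KD and control cells (7 without it) and 1 after RA (2 without it), since 12 of 37 members lie below the median level and were not tested. With no fold cutoff the counts were 17 in proliferating cells and 9 after RA for KD against control, and 11 in KD cells and 14 in control cells for RA, where 12.94%, 17.03%, 15.32% and 12.17% of all probe sets passed. For the interaction, the 1 call became 4 under the methods' variance filter (H2bc4, H2bc8, H1f1 and H1f2), 2 over single-symbol probe sets (H2bc4 and H2bc8), 3 with the filter on low values (H2bc4, H1f2 and H1f1), 4 with a trended, robust eBayes (H2bc4, H2bc8, H1f1 and H1f2), and 0 to 2 with single arrays left out.

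With the array number as a replicate block, limma called 0 interactions, and 10 of 37 members had an unadjusted p under 0.05. Without the block 12 of 37 members and 14.48% of all probe sets did. H2bc4 had an adjusted p of 0.0561 with the block, which ended no other call. H1f5 in KD cells under RA fell short of 1.3-fold with arrays centred on their medians (0.38 against 0.40), and H2bc8 with array weights (-0.36). For these the cause was not tested.

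Under the variance filter the variant median, over fewer probe sets, was 0.134 for KD against control in proliferating cells, -0.012 after RA and 0.279 for RA in KD cells. With arrays centred it was -0.087 for KD against control after RA and -0.063 for the interaction, and with single arrays left out it lay between -0.075 and -0.042 after RA. The replication-dependent median lay between 0.032 and 0.124 for KD against control after RA, -0.090 and 0.006 for RA in KD cells, and -0.238 and -0.142 for the interaction, with single arrays left out, the lowest each time without KD array 1 after RA. Without H1f1, H1f2, H1f3, H2bc4 and H2bc8, an alternative chosen after seeing the data, it was 0.004 for KD against control after RA and 0.027 for RA in KD cells.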
